A study of Mus musculus with 6 samples.

Results

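Small nucleolar RNAs (snoRNAs), small Cajal body RNAs, microRNA genes and the long transcripts that host them were followed in the pancreas of mouse embryos at e16.5. The genes were taken by name from the count tables: symbols beginning Snord, Snora, Scarna, Mir followed by a digit or Mirlet7, and the numbered Snhg host genes, leaving out Mir6236. Of 54735 symbols in the tables, 1350 matched, and 94 of them are described here, selected on their measured counts: at least 30 reads summed over the 6 libraries. They comprised 23 box C/D snoRNAs (Snord), 12 box H/ACA snoRNAs (Snora), 2 Cajal body RNAs (Scarna), 13 snoRNA host genes (Snhg), 37 microRNA genes and 7 microRNA host genes.

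The study asked what retinoic acid signals do in the progenitors that form islet cells. All 6 samples carried Neurog3:cre, a cre driver active in endocrine progenitors, on a mixed C57Bl6/129SV background, and whole pancreas was profiled, so that cells outside the progenitor lineage were part of every library. The 3 control libraries carried the driver alone, and the 3 RARdn libraries also carried RARdnfl/fl, a floxed allele for a dominant negative retinoic acid receptor. The labels do not say whether embryos were pooled or came from separate litters, so the p-values measure only the spread between these libraries, which may be technical. In RNA of a whole organ, fewer cells of a type and less RNA per cell cannot be told apart.

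SnoRNAs guide chemical modification of ribosomal and spliceosomal RNA: box C/D snoRNAs direct ribose methylation and box H/ACA snoRNAs direct the conversion of uridine to pseudouridine, while small Cajal body RNAs do the same for spliceosomal RNAs. In mammals most snoRNAs are cut out of introns of genes for ribosomal proteins and translation factors, or of non-coding hosts such as the Snhg genes. MicroRNAs are cut from hairpins in longer transcripts, and bases 2 to 8 of the mature strand, the seed, choose the messenger RNAs that they silence. Standard RNA libraries are not built to keep mature microRNAs, so a count on a microRNA gene here is the number of reads over its hairpin, whichever transcript they came from.

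Of the 37 microRNA genes, 36 had mature strands in RefSeq (GRCm38.p6), 62 strands with 60 different seeds. The strands below belong to 7 microRNA genes of the imprinted cluster between Dlk1 and Dio3 on chromosome 12, which had few reads in RARdn libraries, and to Mir541, which lies further along the same cluster and whose groups overlapped. They are written 5′ to 3′ with the seed in capitals, and all lie on the plus strand.
miR-493-5p: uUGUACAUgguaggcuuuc
miR-493-3p: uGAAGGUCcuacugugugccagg
miR-540-3p: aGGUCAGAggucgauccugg
miR-540-5p: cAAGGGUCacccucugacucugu
miR-665-3p: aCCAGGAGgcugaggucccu
miR-3070-5p: aGCCCCUGaccuugaaccuggga
miR-3070-3p: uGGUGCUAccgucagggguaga
miR-3070-2-3p: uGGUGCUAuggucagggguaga
miR-341-3p: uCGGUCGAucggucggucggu
miR-1188-5p: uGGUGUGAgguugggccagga
miR-541-5p: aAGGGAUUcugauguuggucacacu
The only seeds found more than once were those of Mir3070a and Mir3070b, which shared GCCCCUG on the 5p strand and GGUGCUA on the 3p strand. Their 5p strands were identical, and whether reads were lost or split between these 2 genes was not tested. No other pair among the 7 shared a seed.

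For the snoRNAs, the gene sequences in the GENCODE M21 transcripts (GRCm38) show the boxes that define each family. The sequences below are the most counted box C/D snoRNA (Snord104), a snoRNA in an intron of Snhg18 (Snord123), the box C/D snoRNA with the largest fold change upward among those tested (Snord72), the most counted box H/ACA snoRNA in an intron (Snora31) and the snoRNA inside Snhg9 (Snora78). Capitals mark box C (TGATGA) where it stood within the first 25 bases, box D (CTGA) where it stood within the last 15, and the ACA triplet within the last 8.
Snord104: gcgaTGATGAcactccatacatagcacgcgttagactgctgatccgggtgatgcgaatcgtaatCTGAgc
Snord123: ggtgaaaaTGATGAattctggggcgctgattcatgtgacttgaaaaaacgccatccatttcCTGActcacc
Snord72: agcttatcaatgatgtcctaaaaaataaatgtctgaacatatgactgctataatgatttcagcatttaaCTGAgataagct
Snora31: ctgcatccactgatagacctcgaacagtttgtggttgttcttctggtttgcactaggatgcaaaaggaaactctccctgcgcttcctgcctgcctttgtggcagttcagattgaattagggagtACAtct
Snora78: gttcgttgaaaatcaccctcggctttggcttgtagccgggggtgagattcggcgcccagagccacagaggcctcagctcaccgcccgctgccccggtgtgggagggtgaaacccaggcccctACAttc
Only the strand of the gene was searched, and only for these letters. Both box C and box D were found in 13 of the 22 described box C/D snoRNAs that were searched, and in 68 of 98 (69.4%) of all Snord entries. The ACA triplet was found in 13 of 13 box H/ACA entries of the described genes and in 40 of 42 (95.2%) of all Snora entries.

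Few genes of these families were counted at all. Of the 1350 symbols, 849 had 0 reads in the 6 libraries, 307 had 1 to 9 and 100 had 10 to 29. The share that reached 30 reads was 92.9% for Snhg hosts (13 of 14, with Snhg3 at 0), 70.0% for microRNA hosts (7 of 10), 30.0% for Snora (12 of 40), 23.5% for Snord (23 of 98), 22.2% for Scarna (2 of 9) and 3.14% for microRNA genes (37 of 1179). The 94 genes had a median of 81 reads over the 6 libraries, from 31 for Snora69 to 14058 for Snhg17. Just inside the limit of 30 stood Snora69 with 31 reads, Mir6955 and Mir1291 with 32, and Snord98 and Mir453 with 33. Just outside it stood Mir186 with 29, Mir370, Mir378b, Mir5136 and Scarna13 with 28, and Mir301b, Mir3109, Mir6406, Mir694, Mir6991 and Mir7013 with 27.

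Whether a small gene was counted went with its position inside another gene. Of 428 snoRNA, Cajal body and microRNA symbols whose exon overlapped an exon of another annotated gene, 382 (89.3%) had 0 reads and 6 (1.40%) reached 30. Of 894 without such an overlap, 461 (51.6%) had 0 reads and 68 (7.61%) reached 30. The hairpins Mir17, Mir18, Mir19a, Mir20a, Mir19b-1 and Mir92-1 inside exons of Mir17hg were all listed at 0, as were Mir22 in Mir22hg and the snoRNAs Snord22 (Snhg1), Snora24 (Snhg8), Snord50a and Snord50b (Snhg5), Snora16a, Snora44, Snora61 and Snord99 (Snhg12) and Snora9 (Snhg15). A 0 for these genes is therefore no measure of the small RNA itself.

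Library totals ran from 35256531 to 52015498 counts, and levels are given as CPM, counts scaled to a common library total, after TMM scaling, a correction of library totals for composition. Control and RARdn libraries differed in their content of other non-coding RNA: genes annotated as ribosomal RNA took 0.930% ± 0.026 of counts in control libraries and 0.0756% ± 0.00549 in RARdn libraries (SD, n = 3 each). The share of all reads outside genes was 8.49% ± 0.776 and 4.34% ± 1.27, and it was lowest in RARdn 3, at 2.90%. Mir6236, left out by the naming rule, had 13.5 ± 1.01 and 0.506 ± 0.120 CPM. Summed mesenchyme markers ran from 3790 to 5062 CPM in control and from 6046 to 6939 in RARdn libraries, and summed acinar markers from 94423 to 104279 and from 29089 to 160584. White cell markers ran from 31.4 to 43.3 and from 52.3 to 73.8 CPM, and liver markers from 376 to 406 and from 446 to 1421. No marker of these lists (9 acinar, 4 mesenchyme, 2 white cell and 4 liver genes) was at 0 in any library, and the part of any of these differences in the results below was not tested. Xist had 44355 counts in control 1 and 48274 in control 3 but 14 in control 2 and 6, 9 and 7 in RARdn 1, 2 and 3; the labels give no sex.

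Across the 94 genes the total level overlapped between the groups and was lowest in 1 RARdn library. Where 3 values are given for a group, here and below, they stand for its libraries 1, 2 and 3 in that order. The summed level was 364.5, 347.2 and 341.1 CPM in control 1, 2 and 3 and 381.0, 384.7 and 278.1 CPM in RARdn 1, 2 and 3. RARdn 3 lay below all other libraries, and the other RARdn libraries lay above all controls. RARdn 3 had the lowest level of the 6 libraries for 61 of the 94 genes (64.9%), against 5050 of 21226 (23.8%) of all genes with at least 30 reads, and 9 of the 94 genes had 0 reads there.

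**Figure D1:**
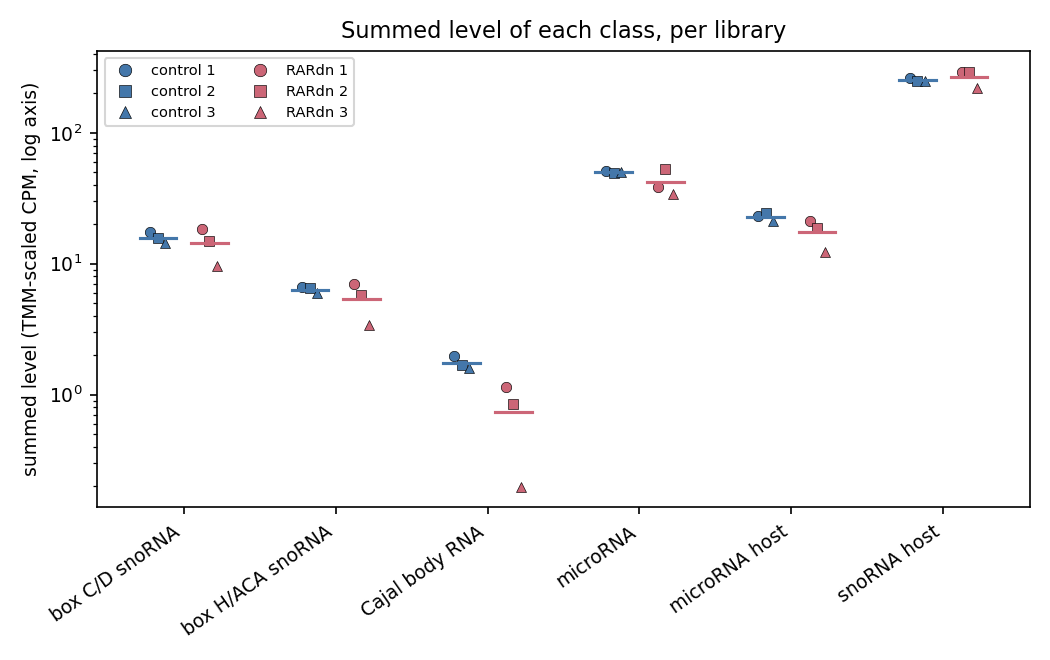
Summed TMM-scaled CPM of each class (log axis) in each library, with horizontal lines at the group means of 3 libraries. RARdn 3 (triangles) is the lowest library in every class, and only the 2 Cajal body RNAs have all RARdn libraries below all controls.

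Of the classes, only the Cajal body RNAs had summed levels that did not overlap between genotypes. Box C/D snoRNAs summed to 17.4, 15.6 and 14.5 CPM in control libraries and to 18.6, 14.8 and 9.61 CPM in RARdn libraries. Box H/ACA snoRNAs summed to 6.58, 6.48 and 5.95 CPM and 6.97, 5.74 and 3.42 CPM, also with overlap. The Cajal body RNAs summed to 1.98, 1.67 and 1.60 CPM in control but to 1.15, 0.848 and 0.197 CPM in RARdn libraries. MicroRNA genes summed to 51.6, 49.3 and 50.5 CPM against 38.7, 52.6 and 34.4 CPM, and Snhg hosts to 264.0, 249.6 and 247.4 CPM against 294.3, 292.0 and 218.4 CPM, both with overlap. The Snhg hosts thus held most of the summed level of the 94 genes.

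By edgeR's quasi-likelihood test over 19070 genes, 61 of the 94 genes were tested and 33 fell under the filter on low counts. No gene was called higher in RARdn (adjusted p under 0.05), where 1.37% of all tested genes were, and 4 were called lower, where 2.65% were: Snhg9, Mir99ahg, Mir493 and Mir540. Without adjustment, 2 genes were higher (Snord72 and Snhg18) and 7 lower at p under 0.05. DESeq2 called 0 higher and 3 lower (5.1% of all genes in each direction) and limma-voom called 0 higher and 4 lower (1.42% and 2.75% of all genes). The median log2 fold change of the 61 tested genes was -0.19, with 44 below 0 and 17 above, while over all tested genes it was 0.00051 with 50.0% below 0. Among all 94 genes the 3 RARdn libraries lay wholly above the controls for 3 genes (3.19%) and wholly below for 20 (21.3%), where 13.1% and 14.7% of the 21226 genes with at least 30 reads did.

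**Figure D2:**
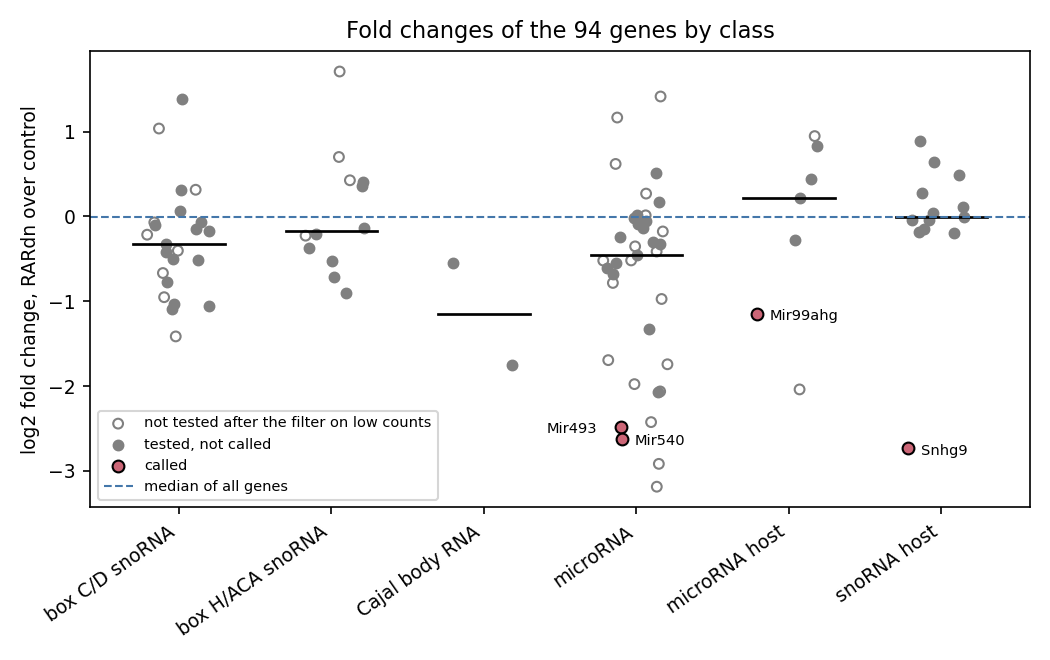
Log2 fold change (RARdn over control) of each of the 94 genes by class, from the fit of all genes with at least 30 reads, with black lines at class medians and a dashed line at the median of all genes. The 4 called genes, Snhg9, Mir99ahg, Mir493 and Mir540, are all below 0, and the lowest values belong to microRNA genes.

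Of the 37 microRNA genes, the RARdn libraries lay wholly below the controls for 13 and wholly above for 0. Of all genes with at least 30 reads, 14.7% and 13.1% did. Among the 13, 7 lay together on chromosome 12. The region between Dlk1 and Dio3 is imprinted, and its maternal chromosome gives the long non-coding transcripts Meg3, Rian and Mirg and a large cluster of microRNAs; it was singled out here after the values were seen. It held 61 microRNA symbols, of which 10 reached 30 reads and 23 were at 0. The 7 of these 10 that lie before Mirg were Mir493, Mir540, Mir665, Mir3070a and Mir3070b, between Meg3 and Rian, and Mir341 and Mir1188, in an intron of Rian. In all 7 the RARdn libraries lay below every control library.

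Mir493 (chr12:109580233-109580315) had 12, 12 and 13 reads in the control libraries against 2, 4 and 1 in RARdn 1, 2 and 3. Its log2 fold change was -2.49 (SE 0.557, adjusted p 0.0459). Mir540 (chr12:109586080-109586146) had 9, 14 and 12 reads in control and 4, 1 and 1 in RARdn libraries, with a log2 fold change of -2.62 (SE 0.598, adjusted p 0.0490). Both fell, without overlap of the groups, on few reads. Mir493 and Mir540 passed the filter on low counts only through their control libraries, so their tests depended on high control counts. Each call was lost when any 1 library was left out, with DESeq2, with scaling by library total only, with another filter on low counts, with the replicate number as a block and with a term for Xist.

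Mir341 (chr12:109611500-109611595) had the most reads of the cluster, 31, 30 and 20 in control and 7, 14 and 1 in RARdn libraries. All RARdn libraries lay below the controls, and the log2 fold change of -2.07 (SE 0.589) did not pass the test (adjusted p 0.0879). Mir665 had 20, 11 and 3 reads against 3, 1 and 0, and Mir1188 had 13, 16 and 8 against 6, 4 and 0. Mir3070a had 17, 10 and 8 reads against 6, 3 and 1, and Mir3070b had 12, 15 and 7 against 5, 2 and 0. These 4 genes were below the filter and have no test; control 3 was the lowest control library for each of them, and RARdn 3 the lowest of all.

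Summed over the 7 genes, the controls had 114, 108 and 71 reads and the RARdn libraries 33, 29 and 4. On the CPM scale this was 2.34 ± 0.668 against 0.423 ± 0.252, a level 5.54-fold lower in RARdn. That fold is a description only. The 7 were singled out after their values were seen, and each reached 30 reads through its control libraries. Their control reads ran from 34 (Mir665 and Mir3070b) to 81 (Mir341), and their RARdn reads from 4 (Mir665) to 22 (Mir341). The summed groups did not overlap with RARdn 3 or without it, which follows from the lack of overlap in each gene. The 3 genes of the cluster inside Mirg went another way: Mir541, Mir3072 and Mir453 together had 27, 17 and 25 reads in control and 21, 46 and 11 in RARdn libraries, or 0.554 ± 0.164 and 0.543 ± 0.316 CPM. Of these, Mir3072 overlaps an exon of Mirg, so its count may not measure its own hairpin, while Mir541 and Mir453 lie in introns. Mir541 alone had 6, 11 and 10 reads against 13, 27 and 4, and these groups overlapped (log2 0.51, adjusted p 0.643).

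The microRNA symbols of the cluster that did not reach 30 reads were split in the same place. The 26 symbols between Rian and Mirg, none of which reached 30 reads, had 37, 39 and 31 reads in all in control and 1, 1 and 2 in RARdn libraries. Their summed level was 0.851 ± 0.125 against 0.0342 ± 0.0274 CPM, 24.9-fold lower in RARdn on 4 RARdn reads. Mir370, in Rian, had 17, 5 and 6 reads in control and 0 in each RARdn library. The 11 symbols under 30 reads inside Mirg had 10, 3 and 3 reads in control and 7, 16 and 10 in RARdn libraries, with overlap.

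**Figure D3:**
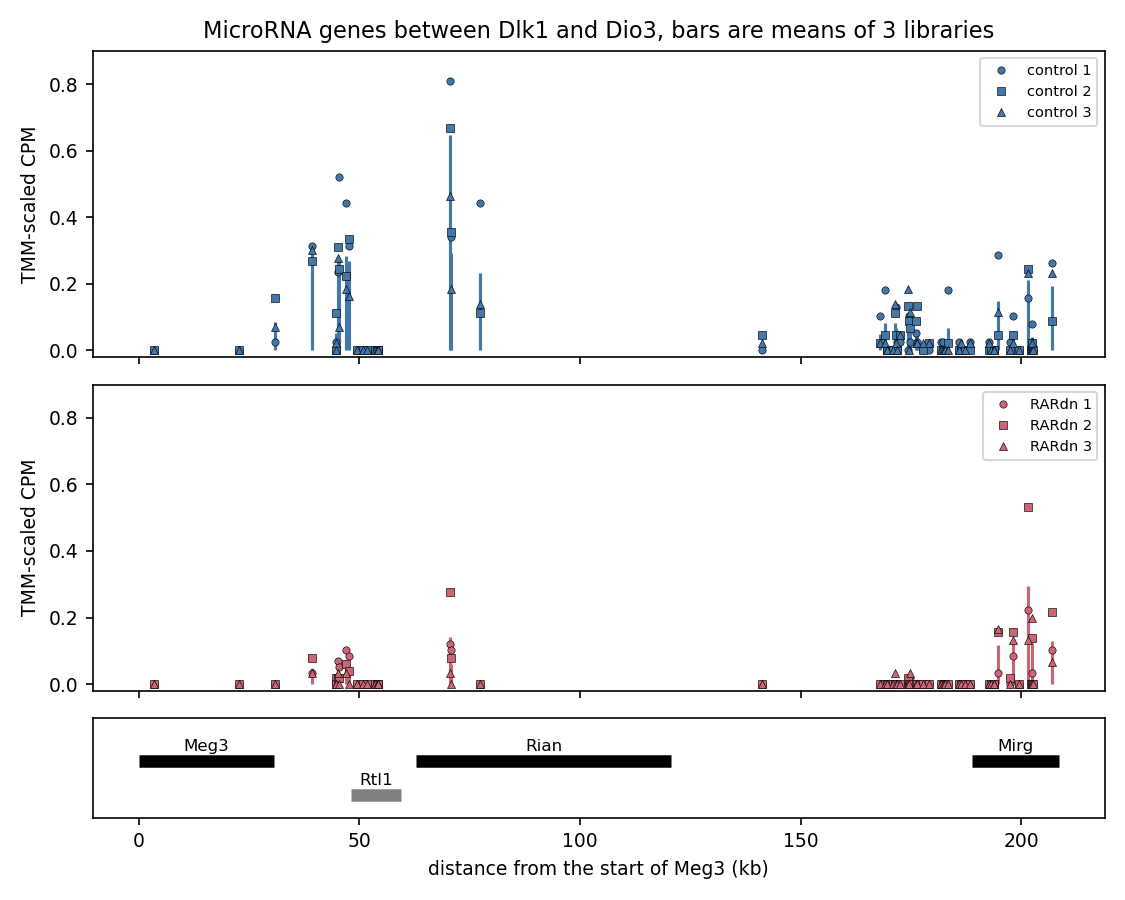
TMM-scaled CPM of each microRNA gene against its distance from the start of Meg3 (kb), in control (top) and RARdn (middle) libraries, with bars at the mean of 3 libraries and the long transcripts drawn to scale below; Mir1247, at 0 reads near Dio3, lies outside the range. Signal before Mirg is lower in RARdn libraries, and signal inside Mirg overlaps between the groups.

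The long transcripts of the region did not pass the test. Meg3 had 1528 ± 114 CPM in control and 1631 ± 479 in RARdn libraries (log2 0.09, adjusted p 0.852), and Rian had 686 ± 49.1 and 812 ± 171 (log2 0.24, adjusted p 0.479). Mirg had 50.1 ± 5.58 and 50.5 ± 12.4 CPM (log2 0.01, adjusted p 0.970), and Rtl1, the protein gene read from the opposite strand, had a log2 fold change of -0.26 (adjusted p 0.612). Per 1000 reads of its host Rian, Mir341 had 1.14, 1.06 and 0.647 reads in control and 0.157, 0.276 and 0.0490 in RARdn libraries, without overlap. At the ends of the region, Dlk1, which encodes a Notch-like ligand, had a log2 fold change of 0.42 (adjusted p 0.171), and Dio3, whose enzyme inactivates thyroid hormone, one of 0.71 (adjusted p 0.0978).

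Outside this cluster no microRNA gene was called. Of the 27 others, 14 were tested and none was called (median log2 -0.28), where 2.65% of all tested genes were called lower and 1.37% higher. The RARdn libraries lay wholly below the controls for 6 of the 27 and wholly above for 0. Of all genes with at least 30 reads, 14.7% lay wholly below and 13.1% wholly above. With the 7 cluster genes before Mirg set aside, 13 of the remaining 87 genes (14.9%) lay wholly below the controls and 3 (3.45%) wholly above; since those 7 were singled out for being lower, the first share is a description only.

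Mir7076 was the most counted microRNA gene. It lies in an intron of Ctrb1, the gene of the acinar enzyme precursor chymotrypsinogen, and had 487, 667 and 675 reads in control and 679, 946 and 308 in RARdn libraries. Its level was 14.4 ± 1.51 against 13.5 ± 4.56 CPM, with overlap (log2 -0.09, adjusted p 0.844). Per 1000 reads of Ctrb1 it had 0.197, 0.256 and 0.244 reads in control and 0.701, 0.308 and 0.109 in RARdn libraries, a wide spread in the latter.

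Mir703 had 9.87 ± 0.453 and 9.73 ± 0.950 CPM (log2 -0.02, adjusted p 0.942), with overlap. Mir5125, in an intron of the splicing factor gene Srrm2, had 9.87, 7.82 and 8.89 CPM in control and 6.15, 7.40 and 3.75 CPM in RARdn libraries. The groups did not overlap, but the log2 fold change of -0.61 (SE 0.242) did not pass the test (adjusted p 0.184). Mir5119, in an intron of Cdk12, the gene of a kinase of RNA polymerase II, had 18, 11 and 7 reads against 2, 2 and 1, without overlap, and was below the filter. It was called lower only where the filter on low counts was relaxed. Mir6955, the member with the fewest reads of its class together with Mir1291, had 3, 6 and 9 reads against 8, 4 and 2.

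Among 70 microRNA and host symbols looked up for their known tissues, 8 reached 30 reads, 20 had 1 to 29 and 42 were at 0. Mir375, the microRNA best known from islet cells, had 4 reads in all, and none of the 11 let-7 symbols reached 30. Mir802, known from liver and pancreas, had 122, 133 and 137 reads in control and 132, 225 and 67 in RARdn libraries (log2 -0.06, adjusted p 0.927). Mir148a had 21, 21 and 32 reads against 19, 37 and 29 (log2 0.16, adjusted p 0.870), and Mir7-1, in an intron of Hnrnpk and known from endocrine cells, had 19, 31 and 43 against 37, 50 and 5 (log2 -0.25, adjusted p 0.832). The groups overlapped for all 3. Mir199a-1, known from mesenchyme, had 9, 9 and 11 reads against 4, 9 and 3, and on the CPM scale its RARdn libraries lay below the controls, while the summed mesenchyme markers lay above them.

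Mir99ahg was the microRNA host that fell. It is the long non-coding host of Mir99a, Mirlet7c-1 and Mir125b-2 (chr16:77236317-77773427, plus strand). It had 350, 434 and 313 reads in control and 250, 244 and 76 in RARdn libraries. Its level was 8.68 ± 1.27 against 3.86 ± 1.21 CPM, without overlap (log2 -1.16, SE 0.250, adjusted p 0.0425). It overlaps Gm11146 on the other strand, and the strand setting of the counting is not given in the sources used here. The call was lost without control 1, control 2, control 3 or RARdn 2, with scaling by library total only and with a term for Xist. Mir99a inside it had 37, 18 and 13 reads against 9, 18 and 4, with overlap (log2 -1.33, adjusted p 0.235).

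Of the other 6 microRNA hosts, 4 were tested and none was called. Mir17hg, host of a cluster known from proliferating cells, had 8.74, 9.04 and 8.84 CPM in control and 10.1, 7.26 and 4.48 CPM in RARdn libraries (log2 -0.28, adjusted p 0.570). Mir22hg had 4.42 ± 0.266 and 5.11 ± 0.551 CPM (log2 0.21, adjusted p 0.514). Mir142hg, from blood cells, had 10, 23 and 7 reads against 41, 25 and 14 (log2 0.82, adjusted p 0.353), with overlap. The groups overlapped for each of these hosts.

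Among the 13 Snhg hosts, Snhg9 fell and no other passed the test (median log2 -0.0081). Snhg9 (chr17:24719531-24719965, minus strand) had 52, 37 and 51 reads in control and 11, 11 and 2 in RARdn libraries. Its level was 1.12 ± 0.272 against 0.157 ± 0.0802 CPM, 6.66-fold lower in the fit, without overlap (log2 -2.74, SE 0.456, adjusted p 0.0178). Its exon overlaps the ribosomal protein gene Rps2 on the opposite strand, which had 1026 ± 337 CPM in control and 36.2 ± 3.73 in RARdn libraries (log2 -4.83), so reads of the pair cannot be told apart without the strand setting. The call was lost without control 1, control 2, control 3 or RARdn 2 and with a term for Xist. Snora78, inside Snhg9, had 6, 17 and 13 reads against 15, 13 and 1, with overlap (log2 -0.52, adjusted p 0.673).

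The abundant Snhg hosts overlapped between groups. Snhg17 had 53.7, 54.8 and 57.1 CPM in control and 50.7, 56.5 and 41.0 CPM in RARdn libraries (log2 -0.16, adjusted p 0.485). Snhg1 had 38.1, 37.0 and 33.5 CPM against 59.4, 40.6 and 31.2 (log2 0.28, adjusted p 0.470). Snhg18 had 39.1, 33.8 and 35.7 CPM against 34.9, 65.3 and 51.4 (log2 0.48, adjusted p 0.202). All 3 overlapped between groups. Without RARdn 1, Snhg18 was called higher (log2 0.72). Snhg8 (log2 -0.0081, adjusted p 0.986), Snhg5 (log2 -0.04, adjusted p 0.912), Snhg12 (log2 0.10, adjusted p 0.633) and Snhg6 (log2 -0.19, adjusted p 0.528) also did not pass the test; Snhg6 overlaps an exon of Mcmdc2 on the opposite strand. Snhg11 had 2.24, 2.38 and 1.64 CPM against 6.75, 3.41 and 1.32, with RARdn 1 and RARdn 2 above the controls and RARdn 3 below them, and Snhg10 had 1.02, 0.356 and 0.995 against 1.25, 1.20 and 1.22, without overlap (log2 0.63, adjusted p 0.396); both were chosen after their values were seen. Per kilobase of exon, Snhg8 was the most abundant host in control libraries (28.9 CPM per kb), followed by Snhg18 (24.4), and Snhg17 had 7.83.

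**Figure D4:**
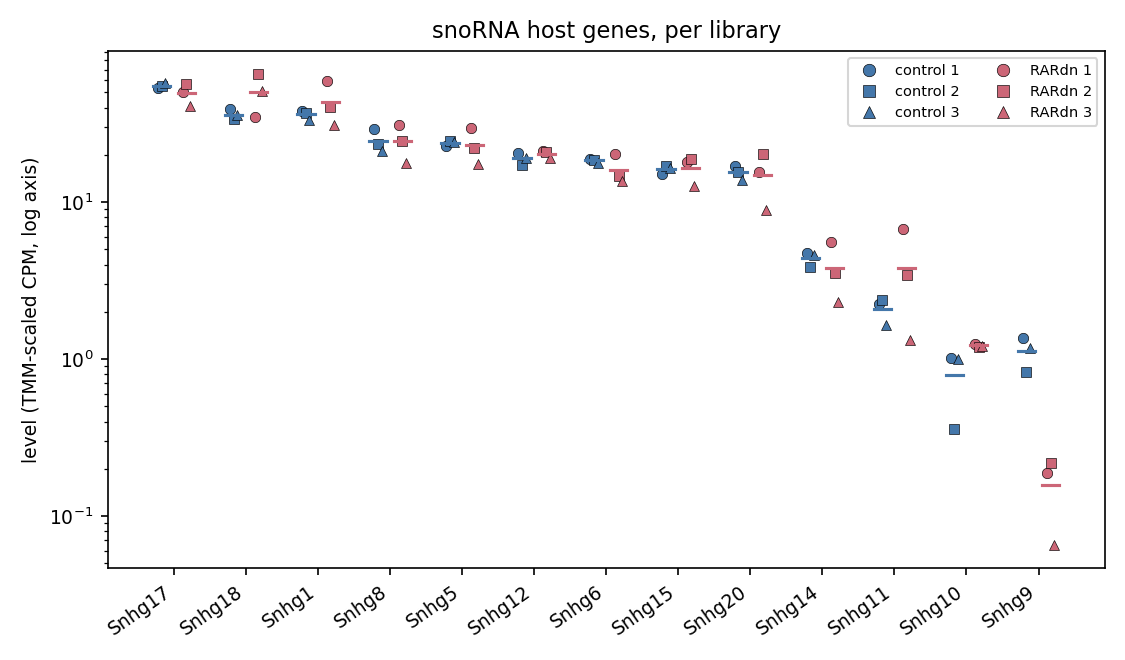
TMM-scaled CPM (log axis) of the 13 Snhg hosts in each library, ordered by summed reads, with lines at group means. Snhg9 is the only host with all RARdn libraries below the controls and Snhg10 the only one with all above.

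The box C/D snoRNAs showed no called gene among 15 tested (median log2 -0.33). Snord104 (chr11:106500993-106501062, plus strand) was the most abundant, with 376, 333 and 278 reads in control and 589, 427 and 182 in RARdn libraries. Its level was 7.89 ± 1.74 against 8.16 ± 2.05 CPM, with overlap (log2 0.06, adjusted p 0.915). Snord83b, in an intron of the ribosomal protein gene Rpl3, had 40, 30 and 31 reads against 26, 29 and 3 (log2 -1.05, adjusted p 0.281), and Snord17, in Snx5, had 25, 26 and 36 against 19, 26 and 4 (log2 -1.03, adjusted p 0.243). On the CPM scale all RARdn libraries lay below the controls for both, with RARdn 3 the lowest. Snord49a (log2 -0.18, adjusted p 0.831) overlapped between groups, as did Snord98, the one with the fewest reads, at 3, 5 and 10 against 5, 8 and 2.

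Snord72, in an intron of the ribosomal protein gene Rpl37, was the box C/D snoRNA with RARdn libraries wholly above the controls, and was chosen after its values were seen. It had 4, 9 and 9 reads in control and 40, 18 and 9 in RARdn libraries, and its log2 fold change of 1.38 (SE 0.510) did not pass the test (adjusted p 0.160). Per 1000 reads of Rpl37 it had 0.184, 0.378 and 0.436 reads against 1.22, 0.559 and 0.554.

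Snord123 lies in an intron of Snhg18. It had 23, 27 and 29 reads in control and 22, 40 and 9 in RARdn libraries (log2 -0.33, adjusted p 0.693). Per 1000 reads of Snhg18 this was 15.3, 17.8 and 18.8 in control and 10.8, 12.1 and 5.76 in RARdn libraries, without overlap. Snord87, inside Snhg6, had 9, 14 and 10 reads against 19, 7 and 7, with overlap (log2 -0.16, adjusted p 0.880).

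The box H/ACA snoRNAs likewise showed no called gene among 8 tested (median log2 -0.30). Snora43 had 47, 62 and 54 reads in control and 63, 36 and 6 in RARdn libraries, and on the CPM scale all RARdn libraries lay below the controls (1.29 ± 0.0832 against 0.662 ± 0.442 CPM, log2 -0.91, adjusted p 0.316). Snora31, in an intron of Tpt1, had 50, 42 and 52 reads against 63, 53 and 30 (log2 -0.14, adjusted p 0.808). Snora17 (log2 -0.72, adjusted p 0.307), Snora41, in the elongation factor gene Eef1b2 (log2 -0.21, adjusted p 0.857), Snora23 (log2 -0.39, adjusted p 0.708) and Snora57 (log2 0.35, adjusted p 0.639) overlapped between groups. Snora69, X-linked and at the limit with 31 reads, had 3, 5 and 3 reads against 9, 7 and 4.

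Of the 2 Cajal body RNAs, Scarna2 (chr3:108554338-108554751, minus strand) had 45, 56 and 37 reads in control and 35, 15 and 0 in RARdn libraries. Its level was 1.09 ± 0.208 against 0.298 ± 0.299 CPM, without overlap, but the log2 fold change of -1.76 (SE 0.730) did not pass the test (adjusted p 0.202). The count of 0 in RARdn 3 allows a level of up to 0.0987 CPM, taking 3 reads as the limit and counting error only. Scarna17 had 31, 19 and 32 reads against 32, 28 and 6, with overlap (log2 -0.55, adjusted p 0.527).

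Most of the small genes lay in introns, and the fold changes of most intronic box C/D snoRNAs and microRNAs were below those of their hosts. Of the 74 snoRNA, Cajal body and microRNA genes, 50 lay in introns of 43 host genes, 13 of which encode ribosomal proteins. The log2 fold change of the intronic gene was below that of its host for 35 and above for 15, with a median difference of -0.31. By class it was below for 16 of 21 box C/D snoRNAs (median difference -0.42), 15 of 20 microRNAs (-0.40) and 4 of 9 box H/ACA snoRNAs (0.27). Of the hosts, 3 were called: Snhg9 and Mir99ahg, lower, and Igf2, higher (log2 0.63, adjusted p 0.0400), whose intronic Mir483 had 3, 11 and 4 reads in control and 11, 5 and 4 in RARdn libraries. The number of reads of the small gene per 1000 host reads lay wholly below the controls in RARdn libraries for 5 of the 50 (Snord123, Mir5125, Mir341, Mir1188 and Mir5119) and wholly above for 3 (Snord72, Snord89 and Snora78). For plain levels, 14.7% of the 21226 genes with at least 30 reads lay wholly below and 13.1% wholly above. No such share was worked out for ratios, so these counts are a description only. Gm15832, the host of Snord89, had only 68, 35 and 3 reads in RARdn libraries. Snhg9, the host of Snora78, had 11, 11 and 2 there, so the ratios of Snord89 and Snora78 rest on few host reads. The lower share of reads outside genes in RARdn libraries, given above, moved in the same direction as the median difference, and its part was not tested.

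**Figure D5:**
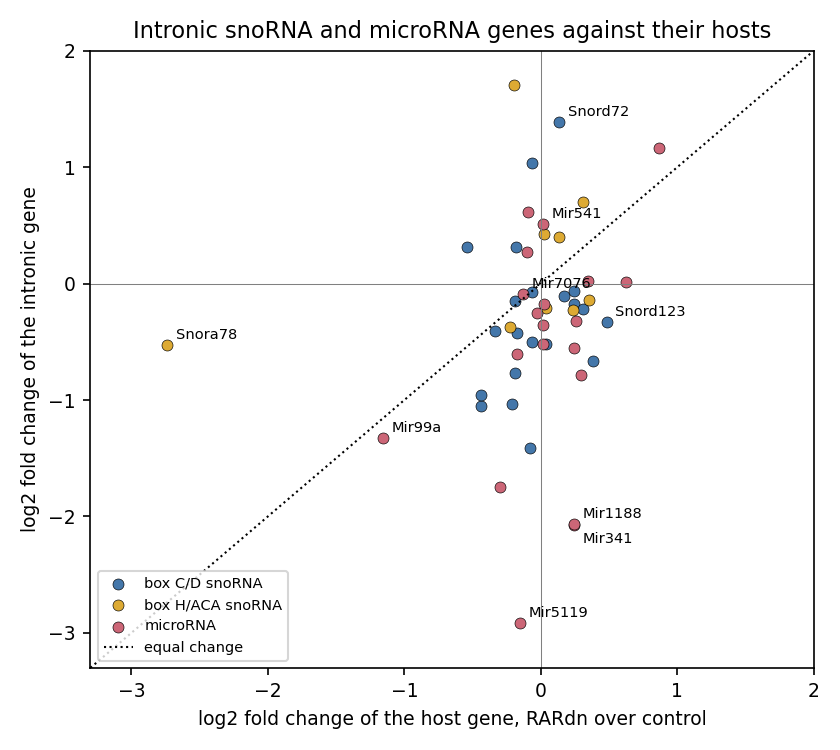
Log2 fold change (RARdn over control) of 50 intronic snoRNA and microRNA genes against that of their host gene, with a dotted line where both are equal. The 2 lowest hosts are Snhg9 and Mir99ahg, and 35 of the 50 points lie below the line.

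The proteins that build snoRNAs into particles gave no call among 20 genes tested (median log2 -0.19, 17 below 0). Fbl, the methyltransferase of box C/D particles, had 111 ± 2.48 CPM in control and 83.0 ± 11.8 in RARdn libraries, without overlap (log2 -0.42, adjusted p 0.0876). The core proteins Nop56 (log2 -0.21, adjusted p 0.435) and Nop58 (log2 -0.23, adjusted p 0.261) and the assembly factor Nolc1 (log2 -0.36, adjusted p 0.231) did not pass the test either. Of 14 genes for snoRNA maturation and RNA decay, Xrn1, the cytoplasmic 5′ to 3′ exonuclease, had 50.1 ± 1.19 CPM in control and fell to 34.6 ± 2.58 CPM (log2 -0.53, SE 0.0931, adjusted p 0.0209), and 13 of the 14 had values below 0 (median -0.20). Upf1 (log2 -0.01, adjusted p 0.970) and Smg1 (log2 -0.41, adjusted p 0.0549), both of nonsense-mediated decay, and the nuclear exonuclease gene Xrn2 (log2 -0.23, adjusted p 0.205) did not pass.

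MicroRNA processing and silencing genes gave no call among 18 tested of 19 (median log2 -0.0076, 9 below and 9 above 0). The RNA helicase genes Ddx5 (log2 0.08, adjusted p 0.801) and Ddx17 (log2 0.05, adjusted p 0.864) and the Argonaute gene Ago2 (log2 -0.19, adjusted p 0.343) did not pass. A list of 39 other host genes had 38 tested and no call (median log2 -0.01). Its most counted genes were H19, with 8142 ± 645 and 5467 ± 1298 CPM and no overlap (log2 -0.57, adjusted p 0.246), Tpt1 (log2 0.36, adjusted p 0.355), Rpsa (log2 0.24, adjusted p 0.551) and Meg3, given above.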

How the data were processed

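The deposited tables, 1 per library, held raw counts of reads by gene symbol. Tools listed in the submitters' processing notes are HISAT2, HTSeq, cutadapt, FastQC, DESeq2 and bedtools, with builds GRCm38 and mm10; their versions, the annotation and the strand setting were not given in the sources used here. By the labels' protocols, total RNA was prepared with an RNeasy kit. The 5 summary lines were left out of library totals and tests. Genes were filtered with filterByExpr, scaled by TMM and tested by edgeR 4.0.16's quasi-likelihood test (R 4.3.3, 2-sided, genotype only), with Benjamini-Hochberg adjustment over 19070 genes; the standard error (SE) was worked back from the F statistic. The test was tested on simulated data. DESeq2 1.42.0 and limma-voom 3.58.1 were alternatives. For the 33 genes under the filter, plotted fold changes come from the fit of all 21226 genes with at least 30 reads. Positions, hosts and exon overlaps come from GENCODE M21, which held 1346 of the 1350 symbols.

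The members and gene lists were chosen with earlier results of these data known. Named in each class were the 6 genes with the most reads, called genes, the one with the fewest reads, snoRNAs inside an Snhg host with that host, the tissue microRNAs, the symbols with 27 to 29 reads, and for each list its called genes filled up to 4 with the most counted; other names were chosen after their values were seen. For 1 named gene no result is reported here.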

Additional observations from a re-analysis of the deposited data

How the results depend on the processing

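Of the genes called lower, 4 in the test as described, 1 was called with scaling by library total only (Snhg9), 2 with the replicate number as a block (Mir99ahg and Snhg9) and 0 with a term for Xist; leaving out 1 library gave 0 to 2, with 0 without control 1, control 2, control 3 or RARdn 2. Of genes called higher, 0 in the test as described, leaving out 1 library gave 0 to 1 (Snhg18 without RARdn 1, Snhg11 without RARdn 3). With RLE size factors 4 were called lower, with limma-voom 4, with DESeq2 3, with a filter at 30 summed reads 3 and with no filter 5. Mir493 and Mir540 were called only in the test as described, with RLE factors and with limma-voom. Over 504 alternative values of 36 named genes, 468 kept direction and side of the threshold, 35 kept direction and lost the call, 1 gained it and 0 called values changed sign; 34 uncalled values did. The cause was not tested. The labels do not say whether the numbers in the titles pair the libraries. Each gene's log2 level was taken as its deviation from the group mean, and these deviations were correlated between libraries. For same-numbered libraries the correlations were 0.0244, -0.0756 and 0.195. Control 1 correlated best with RARdn 2 (0.202) and control 3 with RARdn 3 (0.195). With 3 libraries a group, these values cannot settle whether the numbers pair the libraries. Over all genes, calls ran from 4 higher and 50 lower with the Xist term to 1404 and 1576 without RARdn 3, against 262 and 505; without a filter they were 1123 and 1223, and with DESeq2 973 and 973. The median log2 of the described genes ran from -0.51 without RARdn 1 to -0.11 with library totals. A median of 81 reads a gene over 6 libraries, with 3 libraries a group, limits the precision of single values; the size of change that could be detected was not tested.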

Other observations

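Genes that GENCODE M21 types as snoRNA or small Cajal body RNA but that carry other names were counted separately. Of 1377 such symbols, 52 reached 30 reads and 33 were tested by edgeR. None was called higher, where 1.37% of all tested genes were, and 1 was called lower, where 2.65% were. At an unadjusted p under 0.05 stood 6 of the 33, and the median log2 fold change was -0.40. Their summed level was 24.1, 23.1 and 24.2 CPM in control and 18.4, 20.7 and 10.4 CPM in RARdn libraries, without overlap, and RARdn 3 was the lowest. The called gene, Gm24339, had 43, 46 and 59 reads in control and 17, 18 and 2 in RARdn libraries (log2 -2.21, adjusted p 0.0439). The RARdn libraries lay wholly below the controls for 10 of the 52 (19.2%) and wholly above for 1 (1.92%), where 14.7% and 13.1% of all genes with at least 30 reads did.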
